A study of Mus musculus with 8 samples.

Results

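The autonomic nervous system sets the rate and force of the heart through 2 opposed arms, and 9 of its genes are described here in the hearts of AE3-null and wild-type mice. They were taken by name from the 23282 genes of the counts table: the α1-adrenergic receptors Adra1a and Adra1b, the β-adrenergic receptors Adrb1 and Adrb3, the muscarinic receptor Chrm2, the noradrenaline-synthesizing enzymes Th, Ddc and Dbh, and the monoamine oxidase Maoa. Gene expression had been measured by RNA-seq on total RNA from the hearts of 4-month-old males of the FVB/N strain, in 4 AE3-null libraries, which lack the normal Slc4a3 gene, and 4 wild-type libraries. AE3, the product of Slc4a3, exchanges chloride for bicarbonate across the surface membrane of heart muscle cells. The labels give the tissue as heart, without separating atria from ventricles, and give neither the construction of the null allele nor any drug treatment. The study's design gives n = 4 per genotype, and the p-values below rest on the spread among these 8 libraries.

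Noradrenaline released from sympathetic nerve endings acts on β receptors, which raise cyclic AMP and with it heart rate and contractile force, and on α1 receptors, which signal through phospholipase C. Acetylcholine released from parasympathetic endings acts on the M2 muscarinic receptor, which slows the heart by lowering cyclic AMP and by opening a potassium channel of pacemaker and atrial cells. Noradrenaline is made from tyrosine in a chain of steps by tyrosine hydroxylase (Th), aromatic amino acid decarboxylase (Ddc) and dopamine β-hydroxylase (Dbh), and the cell bodies of the sympathetic neurons that use this chain lie mostly in ganglia outside the heart. After release it is taken up again or broken down, among others by monoamine oxidase A.

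Adra1b, Chrm2 and Dbh were higher in AE3-null than in wild-type hearts, by 1.39-fold, 1.21-fold and 1.77-fold, and in each of them the AE3-null libraries all lay above the wild-type libraries. Adra1a, Adrb1, Ddc and Maoa did not pass the test, and Adrb3 and Th had too few reads to be tested. So 7 of the 9 genes were tested, of which 3 rose and 0 fell. The same 3 and 0 stood at an unadjusted p under 0.05, by DESeq2 and by limma voom. Over all 14136 tested genes, 447 (3.16%) passed the test as higher in AE3-null hearts and 468 (3.31%) as lower, by edgeR's quasi-likelihood test at a Benjamini-Hochberg adjusted p under 0.05. The AE3-null libraries lay all above the wild-type ones in 862 tested genes (6.10%) and all below in 869 (6.15%), against 3 and 0 of the 7 tested autonomic genes. The median log2 fold change of the 7 tested genes was 0.10, against -0.0018 over all tested genes.

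Library totals lay between 9133628 counts, in AE3-null replicate 2, and 27078351 counts, in AE3-null replicate 4. Slc4a3 itself had 32.9 ± 1.26 CPM in AE3-null and 383.5 ± 4.60 CPM in wild-type hearts (SD, n = 4 each), so each library matched its label. CPM are counts scaled by TMM to a common library size, and compare a gene between libraries but not one gene with another. In hearts measured whole, fewer cells of a type and less RNA per cell cannot be told apart. With single libraries left out, the calls over all genes ranged from 214 higher and 193 lower without AE3-null replicate 4 to 821 higher and 906 lower without wild-type replicate 3. Leaving out wild-type replicate 4 gave 228 and 203, AE3-null replicate 3 gave 283 and 286, AE3-null replicate 1 gave 304 and 277, and wild-type replicate 2 gave 310 and 300. The calls among the 9 autonomic genes were 3 higher and 0 lower in each of these fits.

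The promoters of the 3 genes that rose, and that of Th for comparison with Dbh, are shown because the 3 are the members whose RNA level was called, and Th starts the chain that Dbh completes. RefSeq windows from 250 bases before to 50 bases after the annotated start, of mouse assembly GRCm38.p6, were matched for 7 of the 9 genes, and none was matched for Adra1a and Adrb3. They are written 5′ to 3′ on the gene's strand, with 3 motifs in capitals wherever they occur on either strand: TGACG, the core of the cyclic AMP response element (CRE), GGGCGG, the GC box, and TATAAA, the TATA box. On the opposite strand they read as their reverse complements. The windows lie at chr2:27165257-27165556 (plus strand, Dbh), chr7:142899946-142900245 (minus strand, Th), chr6:36387834-36388133 (plus strand, Chrm2) and chr11:43836440-43836739 (minus strand, Adra1b).
Dbh: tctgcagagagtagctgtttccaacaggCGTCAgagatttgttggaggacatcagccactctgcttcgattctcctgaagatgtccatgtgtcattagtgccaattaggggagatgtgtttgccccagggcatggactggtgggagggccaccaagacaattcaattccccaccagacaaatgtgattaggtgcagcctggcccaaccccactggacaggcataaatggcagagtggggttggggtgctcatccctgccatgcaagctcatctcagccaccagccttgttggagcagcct
Th: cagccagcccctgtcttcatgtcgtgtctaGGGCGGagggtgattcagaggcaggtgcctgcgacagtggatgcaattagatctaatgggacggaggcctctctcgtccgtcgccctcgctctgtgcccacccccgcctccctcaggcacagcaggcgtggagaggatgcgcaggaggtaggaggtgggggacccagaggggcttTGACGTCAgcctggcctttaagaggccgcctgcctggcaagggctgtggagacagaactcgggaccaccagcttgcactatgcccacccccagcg
Chrm2: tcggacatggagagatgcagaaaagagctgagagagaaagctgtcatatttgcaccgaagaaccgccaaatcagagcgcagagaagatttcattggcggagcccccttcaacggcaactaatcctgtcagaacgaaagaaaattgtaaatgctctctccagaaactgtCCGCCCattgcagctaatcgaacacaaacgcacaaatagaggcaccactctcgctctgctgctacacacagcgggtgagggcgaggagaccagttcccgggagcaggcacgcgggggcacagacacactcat
Adra1b: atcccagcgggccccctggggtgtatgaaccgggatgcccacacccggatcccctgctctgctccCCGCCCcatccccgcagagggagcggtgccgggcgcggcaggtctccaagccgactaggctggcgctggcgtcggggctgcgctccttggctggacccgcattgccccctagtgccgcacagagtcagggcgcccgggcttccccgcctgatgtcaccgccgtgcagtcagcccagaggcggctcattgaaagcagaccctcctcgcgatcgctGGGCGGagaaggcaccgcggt

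Of these promoters, the Th window held 2 overlapping CRE cores, which together form the full palindrome TGACGTCA at position -45 (bases are counted from the annotated start, which is 1), and the Dbh window held 1 core on the opposite strand at -222. No CRE core was in the Chrm2 or the Adra1b window shown. A GC box was found once in the Th window, at -220, once in the Chrm2 window, at -82, and in the Adra1b window at -185 and 30. No TATA box was found in the 4 windows. A CRE core was present in 20.8% of all 32851 mouse windows of the same length, a GC box in 35.7% and a TATA box in 13.6%. The GC content was 71.3% for Adra1b, 64.3% for Th, 54.0% for Dbh and 52.7% for Chrm2, beside a median of 52.7% over all windows. Adra1b has another annotated start upstream, whose window held none of the 3 motifs and had a GC content of 42.3%. Among the genes that were not called, the window of Adrb1 held 1 CRE core and 1 GC box, and that of Maoa 1 CRE core and 2 GC boxes. Ddc, also not called, had a window with a TATA box on the opposite strand at -68. Another window of Ddc held none of the 3 motifs, and neither held a CRE core or a GC box. The letters alone do not show that a factor binds there.

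**Figure D1:**
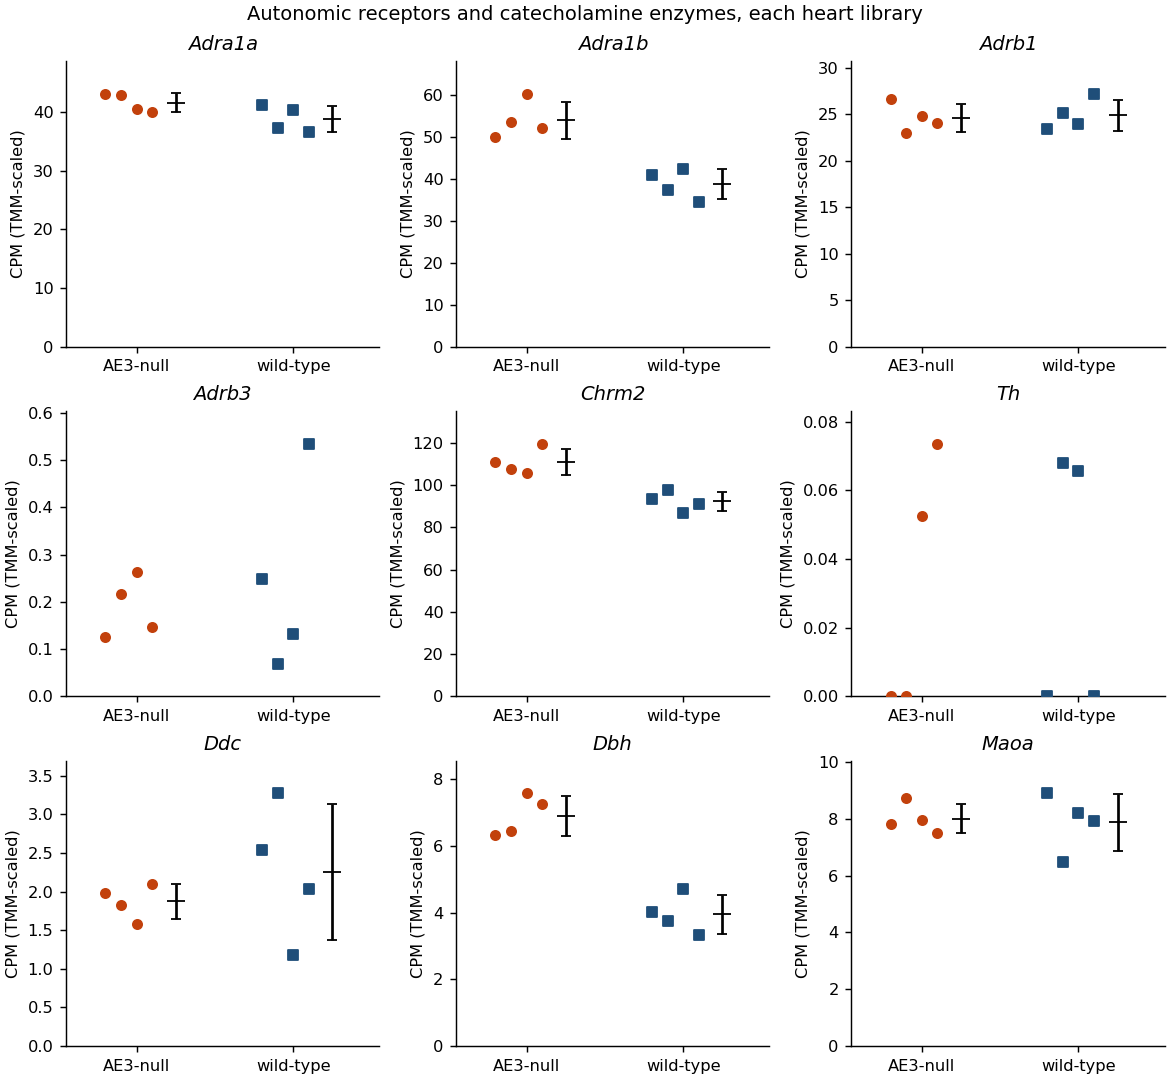
Expression of the 9 autonomic genes in CPM, 1 panel a gene, with AE3-null libraries (circles) to the left of wild-type libraries (squares); black bars show the mean ± SD of 4 libraries and are left out for Adrb3 and Th, which were not tested. The groups do not overlap for Adra1b, Chrm2 and Dbh, and overlap for the other 6 genes.

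The α1-adrenergic receptors Adra1b and Adra1a differed in how they changed. Adra1b, a Gq-coupled receptor for noradrenaline and adrenaline, had 49.99, 53.4, 60.2 and 52.1 CPM in the AE3-null libraries, replicates 1 to 4, against 40.9, 37.3, 42.2 and 34.3 CPM in the wild-type libraries. The lowest AE3-null library thus stood above the highest wild-type library, and AE3-null replicate 3 was the highest of all. The means were 53.9 ± 4.42 CPM in AE3-null and 38.7 ± 3.58 CPM in wild-type hearts (SD, n = 4 each), a log2 fold change of 0.48 (SE 0.0707, edgeR adjusted p 0.00117). Of the 447 genes called higher, 106 had a fold change at least this large, Adra1b among them.

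Adra1a, the other α1 receptor and likewise coupled to Gq, had 43.1, 42.9, 40.6 and 40.0 CPM in AE3-null and 41.1, 37.3, 40.3 and 36.6 CPM in wild-type libraries. The groups overlapped, with 2 AE3-null libraries below the highest wild-type library. The means were 41.6 ± 1.59 CPM in AE3-null and 38.8 ± 2.21 CPM in wild-type hearts (SD, n = 4 each), and the log2 fold change of 0.10 (SE 0.0536, edgeR adjusted p 0.314) did not pass the test, with an interval of 2 SE from -0.009 to 0.205.

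Because both receptors were counted in the same libraries, the share of Adra1b in the reads of the pair is free of the scaling between libraries. Adra1b took 53.7%, 55.5%, 59.7% and 56.6% of the Adra1a and Adra1b reads in AE3-null libraries, against 49.9%, 50%, 51.2% and 48.4% in wild-type libraries. Every AE3-null library had a larger share than every wild-type library. The mean share was 56.4% ± 2.53 in AE3-null and 49.9% ± 1.15 in wild-type hearts (SD, n = 4 each), a difference of 6.53 percentage points (exact two-sided permutation test, p = 0.0286, the smallest that 70 arrangements can give). Without wild-type replicate 4 the difference was 6.04 points with an exact permutation p of 0.0571. The shares of the remaining libraries still did not overlap, and fewer than 70 arrangements were possible. Reads are not transcripts, since the merged annotated exons of Adra1b span 3382 bases and those of Adra1a 6855 bases. Adra1b rose in this comparison also when tested alone, so its share is no second piece of evidence.

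**Figure D2:**
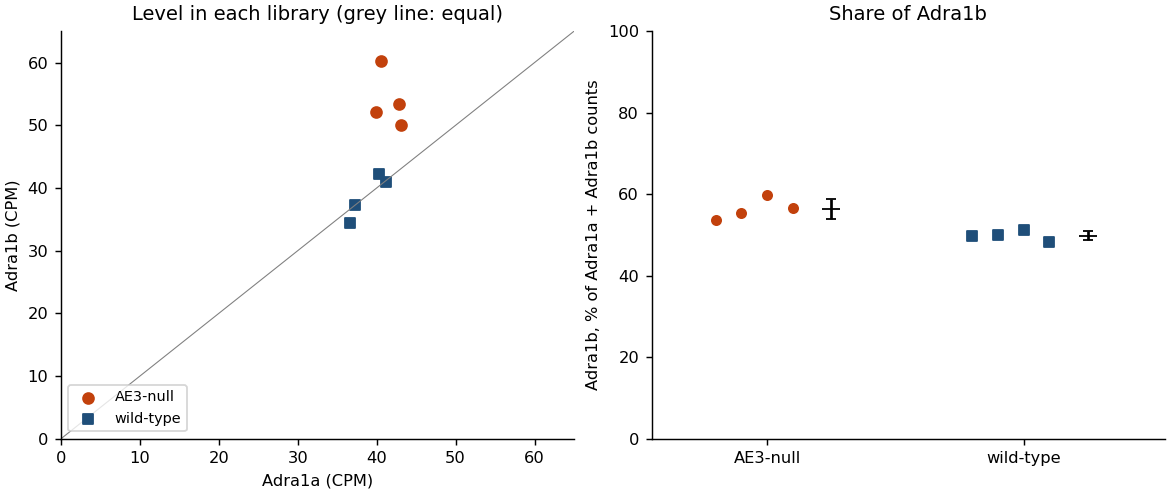
Left, CPM of Adra1b against CPM of Adra1a in each library (AE3-null circles, wild-type squares) with the line of equal CPM; right, Adra1b as a percentage of the Adra1a and Adra1b reads by genotype, AE3-null at the left, with the mean ± SD of 4 libraries. The AE3-null libraries lie above the line at 53.7% to 59.7%, and the wild-type libraries lie close to it at 48.4% to 51.2%.

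The β-adrenergic receptors gave no called difference. Adrb1, the main β receptor of heart muscle cells and coupled to Gs, had 26.6, 22.9, 24.8 and 24.0 CPM in AE3-null and 23.4, 25.1, 23.9 and 27.2 CPM in wild-type libraries. Each group held libraries both above and below those of the other. The means were 24.6 ± 1.55 CPM in AE3-null and 24.9 ± 1.67 CPM in wild-type hearts (SD, n = 4 each), with a log2 fold change of -0.01 (SE 0.0638, edgeR adjusted p 0.941) and an interval of 2 SE from -0.14 to 0.115. Its sign changed with scaling by total counts only, where the log2 fold change was 0.0069.

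Adrb3, the β receptor known best from fat cells, was close to the limit of detection. It had 3, 2, 5 and 4 reads in the AE3-null libraries and 4, 1, 2 and 10 reads in the wild-type libraries, or 14 and 17 in all of 78848028 and 65323823 reads. The highest library was wild-type replicate 4 with 10 reads. Fat cell genes varied between libraries as well: the summed level of 10 adipocyte markers lay between 43.0 and 88.3 CPM in AE3-null and between 49.0 and 62.0 CPM in wild-type libraries, and 0 of the 8 tested were called by edgeR, also at an unadjusted p under 0.05, or by DESeq2. The tested markers with the smallest p were Cfd, the serine protease adipsin, with a log2 fold change of -0.24 (edgeR adjusted p 0.495), and Pck1, an enzyme of glycerol and glucose synthesis, with -0.85 (edgeR adjusted p 0.508). Ucp1, the uncoupling protein of brown fat, chosen after its values were seen, had 1, 19, 132 and 1 reads in AE3-null and 6, 9, 1 and 26 reads in wild-type libraries. Wild-type replicate 4 was the highest of the 8 libraries for 2 of the 10 adipocyte markers and the lowest for 3, Cidea, Lep and Retn. The part of fat tissue in the Adrb3 reads was not tested.

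Of the 5 adrenergic receptors outside the list, 4 were tested and 0 were called by edgeR, also at an unadjusted p under 0.05, or by DESeq2, with a median log2 fold change of -0.03. Adra2b, an α2 receptor, had a log2 fold change of 0.35 (SE 0.258, adjusted p 0.484). Adra1d, the remaining α1 receptor, had 7.15 ± 1.03 CPM in AE3-null and 6.74 ± 0.614 CPM in wild-type hearts (log2 0.09, SE 0.116, adjusted p 0.719). All p-values of this paragraph are edgeR's, adjusted over all tested genes.

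Chrm2, the M2 muscarinic receptor through which the vagus nerve slows the heart, was higher in AE3-null hearts. It had 111, 108, 106 and 119.7 CPM in AE3-null libraries and 93.5, 97.6, 86.9 and 91.1 CPM in wild-type libraries. The ranges were separate, by a gap narrower than the range within either genotype. The means were 111 ± 6.17 CPM in AE3-null and 92.3 ± 4.48 CPM in wild-type hearts (SD, n = 4 each), with a log2 fold change of 0.27 (SE 0.0470, edgeR adjusted p 0.00280). An annotated long noncoding RNA, 9330158H04Rik, overlaps Chrm2, and since the strand setting of the counting is not given, reads of the pair cannot be told apart with certainty. This RNA had 15.3 ± 0.490 CPM in AE3-null and 13.1 ± 1.45 CPM in wild-type hearts (log2 0.22, edgeR adjusted p 0.126). It was not called, but its ranges were separate as well, at 14.77 to 15.84 CPM in AE3-null and 11.55 to 14.39 CPM in wild-type libraries. Of the other 4 muscarinic receptors only Chrm3, a Gq-coupled one, was tested, with 1.36 ± 0.393 CPM in AE3-null and 0.797 ± 0.265 CPM in wild-type hearts (log2 0.67, SE 0.277, adjusted p 0.172). Chrm1 and Chrm5 stayed below 0.1 CPM in every library.

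The channel through which M2 receptors act on membrane potential moved the same way. Kcnj5, which forms this potassium channel together with Kcnj3, had 160.5, 156, 175 and 176 CPM in AE3-null and 125, 116, 124 and 109 CPM in wild-type libraries, so that the lowest AE3-null library exceeded the highest wild-type library. It rose by log2 0.50 (SE 0.0505, edgeR adjusted p 5.43e-05). Kcnj3, the partner subunit, had 73.6 ± 3.23 CPM in AE3-null and 57.6 ± 7.12 CPM in wild-type hearts (log2 0.35, SE 0.0746, adjusted p 0.0157), and lost its call without AE3-null replicate 1 (adjusted p 0.051), AE3-null replicate 4 (0.0587) or wild-type replicate 2 (0.0559). Markers of atrial muscle cells, which carry much of this receptor and channel, were also higher: by edgeR, and likewise by DESeq2 and at an unadjusted p under 0.05, 8 of 10 rose and 0 fell, with a median log2 fold change of 0.35, and their summed level lay between 4114 and 4720 CPM in AE3-null libraries against 3112 to 3685 CPM in wild-type libraries. Among them the gap junction gene Gja5 rose by log2 0.58, the atrial myosin light chains Myl7 and Myl4 by 0.47 and 0.40, and the myosin-binding protein Mybphl by 0.42. Without wild-type replicate 4 or AE3-null replicate 3, 6 of the 10 rose. The part of atrial tissue in the levels of Chrm2, Kcnj5 and Kcnj3 was not tested.

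The noradrenaline-synthesizing enzymes were expressed at very unequal levels, and Dbh alone among them was called. Th, the first and rate-limiting enzyme, had 0, 0, 1 and 2 reads in the AE3-null libraries and 0, 1, 1 and 0 reads in the wild-type libraries. No library held more than 2 reads, whereas the limit that a count of 0 allows, 3 reads, was worth 0.11 to 0.323 CPM depending on the library. A difference in Th was therefore not detectable at this depth.

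Ddc, which turns DOPA into dopamine and also serves serotonin synthesis, had 1.98, 1.83, 1.58 and 2.10 CPM in AE3-null and 2.53, 3.27, 1.18 and 2.03 CPM in wild-type libraries. The wild-type libraries were spread more widely and enclosed the AE3-null ones. The means were 1.87 ± 0.224 CPM in AE3-null and 2.25 ± 0.878 CPM in wild-type hearts (SD, n = 4 each), with a log2 fold change of -0.24 (SE 0.240, edgeR adjusted p 0.623) and an interval of 2 SE from -0.721 to 0.238. With single libraries left out, the log2 fold change lay between -0.44 and -0.02.

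Dbh, which turns dopamine into noradrenaline inside storage vesicles, showed the largest difference of the 7 tested genes. It had 6.32, 6.46, 7.58 and 7.25 CPM in AE3-null and 4.02, 3.75, 4.72 and 3.32 CPM in wild-type libraries. The gap between the lowest AE3-null and the highest wild-type library was wider than the range within either genotype. These values rest on 150, 60, 144 and 197 reads in AE3-null libraries and on 65, 55, 72 and 62 reads in wild-type libraries. The means were 6.90 ± 0.610 CPM in AE3-null and 3.95 ± 0.590 CPM in wild-type hearts (SD, n = 4 each), a log2 fold change of 0.82 (SE 0.123, edgeR adjusted p 0.000911). Dbh ranked 27th by log2 fold change among the 447 genes called higher.

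No tested marker of sympathetic and other cardiac neurons was called. Of 21 such markers 8 were tested and 0 passed by edgeR or DESeq2 (1 lower, Stmn2, at an unadjusted p under 0.05), and their median log2 fold change was 0.08. Their summed level lay between 88.3 and 111.3 CPM in AE3-null and between 87.1 and 104.0 CPM in wild-type libraries, of which Hand2, a transcription factor also expressed by other heart cells, made up 68.6% to 75.5%. Without Hand2 the other 20 summed to 26.8, 27.2, 26.3 and 29.4 CPM in AE3-null libraries, against 27.4, 27.9, 27.3 and 27.0 CPM in wild-type libraries. The groups overlapped in this sum. Stmn2, a microtubule regulator of neurons, and Phox2a, a transcription factor of noradrenergic neurons, had log2 fold changes of -0.25 and 0.28 (edgeR adjusted p 0.126 and 0.447).

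The proteins that handle noradrenaline in the nerve ending were looked at singly, chosen after their values were seen. Slc18a2, the vesicular transporter that loads dopamine and noradrenaline, had 3.37, 4.42, 3.16 and 3.31 CPM in AE3-null and 3.52, 3.48, 2.82 and 3.21 CPM in wild-type libraries (log2 0.09, SE 0.143, adjusted p 0.812 by edgeR). The groups overlapped. Slc6a2, the noradrenaline reuptake transporter, had 2, 0, 9 and 2 reads in AE3-null and 6, 5, 3 and 4 reads in wild-type libraries, and was too low to be tested. Npy, the peptide stored with noradrenaline, had 5, 2, 4 and 10 reads in AE3-null and 3, 3, 1 and 3 reads in wild-type libraries, likewise too few for a test. Scaled to library size, its groups did not overlap, at 0.2105 to 0.3683 CPM in AE3-null and 0.0656 to 0.2045 CPM in wild-type libraries. These levels rest on at most 10 reads a library.

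Among 21 markers of sympathetic and cardiac neurons, AE3-null replicate 4 was the highest of the 8 libraries for 11 and the lowest for 2, Stmn2, a neuronal tubulin-binding protein, and Gata3, a transcription factor. Stmn2 had 6.85 CPM in it, against 7.21 to 8.08 CPM in the other AE3-null and 8.08 to 9.34 CPM in the wild-type libraries. Slc6a2, the noradrenaline transporter, Slc18a2, the vesicular monoamine transporter, and Nefm, a neurofilament, were not highest in it. In 4 genes chosen after their values were seen it had the most reads, though few. AE3-null replicate 4 had 13 reads of Slc5a7, the choline transporter of cholinergic nerves, where the other AE3-null libraries had 0, 0 and 1 and the wild-type libraries 0 each. Slc18a3, the vesicular acetylcholine transporter, gave 6 reads in it, 0, 0 and 1 in the other AE3-null libraries and 0 in the wild-type libraries. Snap25, a synaptic fusion protein, and Tubb3, a neuronal tubulin, gave 15 and 26 reads, above all other libraries, where the highest counts were 4 and 8. Dbh had its most reads, 197, in this library, the largest, but its highest CPM, 7.58, in AE3-null replicate 3. Without AE3-null replicate 4 the log2 fold change of Dbh was 0.79 and its call held (edgeR adjusted p 0.00726). Of the markers of Schwann cells, which ensheathe nerves, 0 of 10 tested were called by edgeR, also at an unadjusted p under 0.05, or by DESeq2, with summed levels of 44.7 to 56.7 CPM in AE3-null and 44.6 to 51.2 CPM in wild-type libraries and a median log2 fold change of 0.14. Sox10, a transcription factor of these cells, had a log2 fold change of 0.33 (edgeR adjusted p 0.281).

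**Figure D3:**
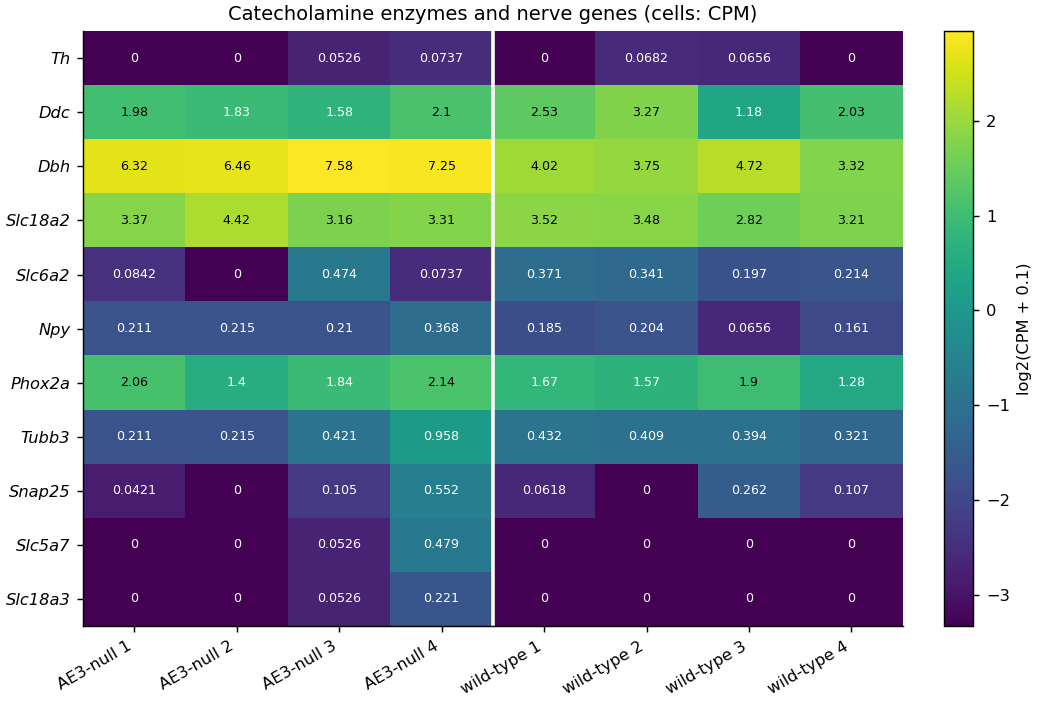
Levels of noradrenaline enzymes and nerve genes by library, AE3-null columns left of wild-type columns; colour is the log2 of CPM with a small offset and the printed figures are CPM. The Dbh row is at 6.32 to 7.58 CPM in AE3-null and 3.32 to 4.72 CPM in wild-type libraries, and the Th row stays below 0.1 CPM in all of them.

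Maoa, which breaks down noradrenaline and serotonin at the outer mitochondrial membrane, had 7.83, 8.73, 7.95 and 7.51 CPM in AE3-null and 8.90, 6.48, 8.20 and 7.92 CPM in wild-type libraries. The highest and the lowest values were both wild-type libraries. The means were 8.01 ± 0.514 CPM in AE3-null and 7.87 ± 1.02 CPM in wild-type hearts (SD, n = 4 each), with a log2 fold change of 0.0042 (SE 0.103, edgeR adjusted p 0.989) and an interval of 2 SE from -0.202 to 0.21. For the related enzyme Maob the log2 fold change was 0.03 (edgeR adjusted p 0.741).

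Levels can be set between genes only per length, here as CPM per kilobase of merged exons in the GENCODE annotation of GRCm38, which is not the annotation of the counts. In AE3-null hearts the order was Chrm2 with 19.6 ± 1.09, Adra1b with 15.9 ± 1.31, Adrb1 with 8.33 ± 0.524, Adra1a with 6.07 ± 0.232, Dbh with 2.71 ± 0.239, Maoa with 1.92 ± 0.123 and Ddc with 0.894 ± 0.107 CPM per kilobase (SD, n = 4). Adrb3 and Th followed at 0.0650 and 0.0134. No neighbours in this order overlapped between libraries. In wild-type hearts Chrm2 had 16.3 ± 0.789, Adra1b 11.4 ± 1.06, Adrb1 8.44 ± 0.564, Adra1a 5.67 ± 0.322, Maoa 1.89 ± 0.244, Dbh 1.55 ± 0.231 and Ddc 1.08 ± 0.420 CPM per kilobase (SD, n = 4), ahead of Adrb3 with 0.0848 and Th with 0.0142. Here Maoa overlapped with Dbh, Dbh with Ddc and Adrb3 with Th. The order differed between genotypes for 1 pair, Dbh and Maoa.

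Around these genes, 93 further genes of autonomic signalling were tested, in 9 lists, with a median log2 fold change of 0.025. Of them 12 (12.9%) rose and 6 (6.45%) fell, beside 3.16% and 3.31% of all tested genes. The lists were chosen with earlier results of these data known, so these shares are a description. With single libraries left out, the numbers ranged from 7 to 16 higher and from 3 to 11 lower. Leaving out AE3-null replicate 3 gave 7 and 5, AE3-null replicate 4 gave 7 and 3, wild-type replicate 4 gave 7 and 4, AE3-null replicate 1 gave 8 and 3, and wild-type replicate 3 gave 16 and 11. The p-values that follow are edgeR's, adjusted over all 14136 genes.

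Among genes that end or dampen receptor signals, Rgs7 and Grk3 were higher in AE3-null hearts. Of 14 receptor kinases, arrestins and RGS proteins, 2 rose and 0 fell by edgeR and by DESeq2, and 4 were higher and 2 lower at an unadjusted p under 0.05. Rgs7, which speeds the switching off of inhibitory G proteins, had 4.67, 4.42, 4.84 and 4.42 CPM in AE3-null and 2.90, 2.11, 2.89 and 2.62 CPM in wild-type libraries. The ranges were separate (log2 0.80, SE 0.134, adjusted p 0.00204). Grk3, a kinase that phosphorylates activated receptors, had 46.0 ± 2.58 CPM in AE3-null and 34.0 ± 3.70 CPM in wild-type hearts (log2 0.43, SE 0.0709, adjusted p 0.00230). Grk2 and Arrb1, better known in heart failure, had log2 fold changes of -0.10 and -0.10 (adjusted p 0.162 and 0.280); these 2 were chosen after their values were seen.

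Of 20 G protein, adenylyl cyclase and phospholipase C genes, 3 rose and 1 fell. Gng2, a γ subunit of G proteins, had 14.9 ± 1.19 CPM in AE3-null and 9.43 ± 1.12 CPM in wild-type hearts (log2 0.67, SE 0.0931, adjusted p 0.000469). Adcy4, an adenylyl cyclase, fell to 29.0 ± 1.51 CPM in AE3-null hearts, against 37.7 ± 3.91 CPM in wild-type hearts (log2 -0.39, SE 0.0694, adjusted p 0.00359). Gnao1, the α subunit of Go, rose by log2 0.23 (adjusted p 0.0168), and its adjusted p lay between 0.0524 and 0.0629 without AE3-null replicate 3 or 4 or wild-type replicate 1 or 4. The phospholipase Plce1 rose by log2 0.19 (adjusted p 0.0323) although its groups overlapped. Its adjusted p lay between 0.0817 and 0.115 without AE3-null replicate 2, 3 or 4 or wild-type replicate 1 or 4, and was 0.0508 without robust moderation. Markers of endothelial cells, in which Adcy4 is also expressed, were lower: 4 of 10 fell and 0 rose by edgeR and by DESeq2 (8 and 0 at an unadjusted p under 0.05), and their summed level lay between 1608 and 1679 CPM in AE3-null and between 1831 and 1982 CPM in wild-type libraries. The 4 were the adhesion molecule Pecam1, which fell by 0.26 on the log2 scale (edgeR adjusted p 0.00163), the junction protein Esam by 0.20 (0.0150), the TGF-β co-receptor Eng by 0.24 (0.0189) and the VEGF receptor Kdr by 0.39 (0.0262). The call of Pecam1 held in all alternatives, whereas without AE3-null replicate 4 the adjusted p was 0.0653 for Esam, 0.063 for Eng and 0.0847 for Kdr, which left 1 of 10 called. The count was 2 without AE3-null replicate 1 or 2, and 3 or 4 without any other 1 library: Esam was also lost without AE3-null replicate 3, Eng without AE3-null replicate 1 or 2 or wild-type replicate 4, and Kdr without AE3-null replicate 1 or 2 or wild-type replicate 1 or 3 and with no filter (adjusted p 0.0501 to 0.0724). The part of endothelial cells in the Adcy4 result was not tested.

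Of 22 genes that bind, anchor or break down cyclic AMP, 1 rose and 3 fell. Popdc2, a membrane protein of heart muscle that binds cyclic AMP, had 623 ± 32.2 CPM in AE3-null and 531 ± 24.0 CPM in wild-type hearts (log2 0.23, SE 0.0420, adjusted p 0.00359). Pde8a, a phosphodiesterase for cyclic AMP, fell to 20.3 ± 1.33 CPM in AE3-null hearts, against 27.2 ± 3.60 CPM in wild-type hearts (log2 -0.43, SE 0.0852, adjusted p 0.00778). Rapgef4, an exchange factor opened by cyclic AMP, and the phosphodiesterase Pde2a fell by 0.27 and 0.18 on the log2 scale (adjusted p 0.0135 and 0.0437). Without AE3-null replicate 1 or 4 or wild-type replicate 4 the adjusted p of Rapgef4 was 0.0576 to 0.0595, and without AE3-null replicate 1, 2 or 4 or wild-type replicate 1, 2 or 4 that of Pde2a was 0.072 to 0.131. The call of Pde2a was also lost by limma voom (0.0588), without robust moderation (0.0627) and with total counts only (0.0723).

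Of 13 protein kinase A targets and channels, 4 rose and 0 fell, among them Kcnj5 and Kcnj3, given above. At an unadjusted p under 0.05, 6 were higher and 0 lower, and DESeq2 called 3 higher and 0 lower. Pln, the inhibitor of the calcium pump that protein kinase A relieves, had 5972 ± 144 CPM in AE3-null and 5421 ± 123 CPM in wild-type hearts (log2 0.14, SE 0.0303, adjusted p 0.0116). Hcn4, the pacemaker channel of the sinus node, had 15.7 ± 0.535 CPM in AE3-null and 12.8 ± 1.62 CPM in wild-type hearts (log2 0.30, SE 0.0869, adjusted p 0.0478). Its call was lost without any one of the AE3-null replicates and without wild-type replicate 2 or 4, with adjusted p-values of 0.0835 to 0.163, and by DESeq2 (0.0519), by limma voom (0.0528) and without robust moderation (0.0627).

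Genes for the supply and removal of the transmitters were tested in small numbers. Over all tested genes, 3.16% were called higher and 3.31% lower. Of 10 tested genes for the cofactor, storage, uptake and breakdown of catecholamines, 2 were called, 1 of them Pts. Pts, an enzyme of the synthesis of tetrahydrobiopterin, the cofactor of Th, had 27.1 ± 1.64 CPM in AE3-null and 22.5 ± 2.27 CPM in wild-type hearts (log2 0.25, SE 0.0709, adjusted p 0.0431). Its call was lost with several single libraries left out: the adjusted p of Pts was 0.0644 to 0.116 without any one of the AE3-null replicates and without wild-type replicate 1, 2 or 4. It was 0.0627 by limma voom and 0.0605 without robust moderation. Of the acetylcholine genes 2 of 5 were tested and 1 rose, the esterase Bche, with 36.7 ± 1.18 CPM in AE3-null and 31.8 ± 0.550 CPM in wild-type hearts (log2 0.20, SE 0.0487, adjusted p 0.0196). Its adjusted p was 0.0518 to 0.0565 without AE3-null replicate 1 or 3 or wild-type replicate 4. Of 7 tested nerve growth and guidance factors 0 rose and 1 fell, Vegfa, an angiogenic factor, by 0.34 on the log2 scale (adjusted p 0.00478). In this list 2 were higher and 2 lower at an unadjusted p under 0.05, and 0 higher and 1 lower by DESeq2.

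**Figure D4:**
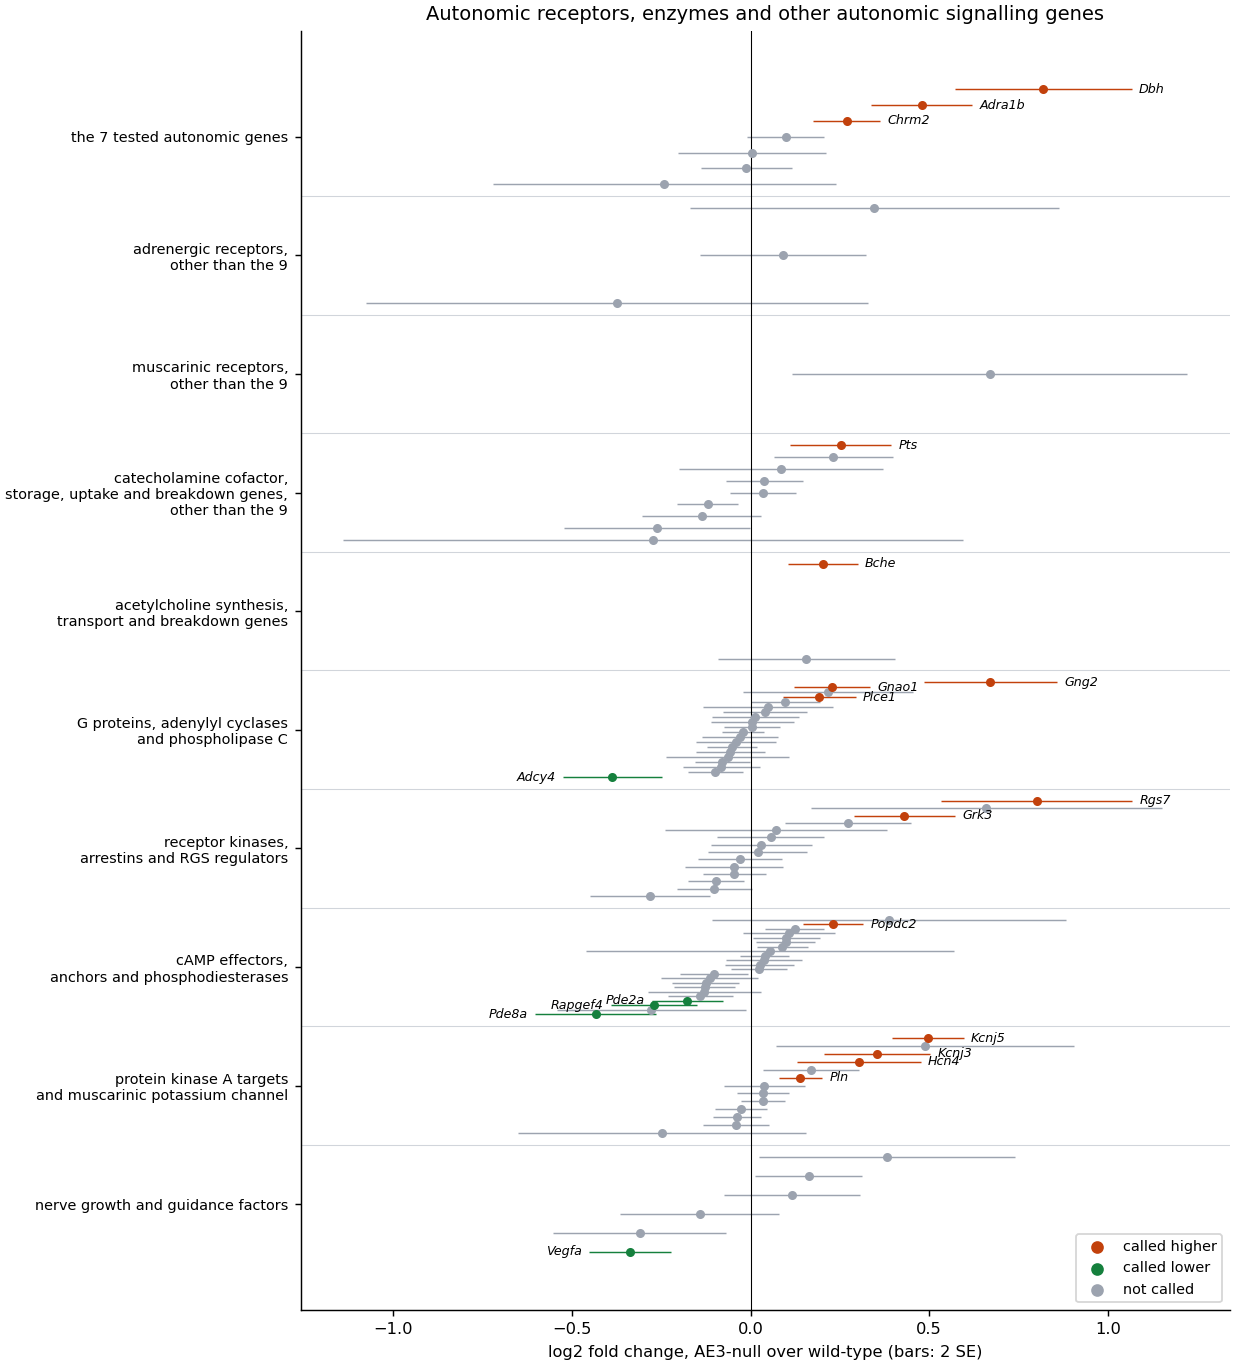
Log2 fold change (AE3-null over wild-type) of the tested autonomic receptors, enzymes and other autonomic pathway genes, by list, with bars of ±2 SE, less a few that are not shown; orange marks genes called higher, green lower and grey not called at an edgeR adjusted p under 0.05. Dbh, at 0.82, and Rgs7, at 0.80, are the called genes farthest to the right, and Pde8a, at -0.43, the called gene farthest to the left.

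Markers of other heart cell types were counted likewise. Of 10 smooth muscle and pericyte markers 2 rose, Myh11 by log2 0.32 and Abcc9 by 0.16 (adjusted p 0.059 without AE3-null replicate 4), with sums of 1572 to 1679 CPM in AE3-null and 1470 to 1527 CPM in wild-type libraries. Abcc9, the regulatory subunit of a potassium channel that heart muscle also expresses, made up 41.8 to 46.5% of each AE3-null sum and 41.9 to 44.1% of each wild-type sum. Without it the sums of the other 9 markers overlapped, at 841 to 967 CPM in AE3-null and 822 to 888 CPM in wild-type libraries. Smooth muscle cells of vessels carry α1 receptors, and their part in the Adra1b result was not tested. Of 10 cardiomyocyte markers 2 rose and 0 fell by edgeR and by DESeq2 (2 and 3 at an unadjusted p under 0.05), and their sums, 118100 to 125800 CPM in AE3-null and 119200 to 128000 CPM in wild-type libraries, overlapped. The 2 that rose were Pln, given above, and Tnnt2, cardiac troponin T, by log2 0.12 (edgeR adjusted p 0.0423), whose call was lost without robust moderation and without any 1 library other than AE3-null replicate 4 (adjusted p 0.0566 to 0.119). Of 10 fibroblast markers 0 rose and 2 fell, against 1 and 3 at an unadjusted p under 0.05 and 1 and 2 by DESeq2. Pi16, a secreted protein, fell by 0.31 on the log2 scale (edgeR adjusted p 0.00296), and the matrix protein Dpt fell by 0.14 (edgeR adjusted p 0.0345), a call lost with total counts only and without any 1 library other than wild-type replicate 3 (adjusted p 0.051 to 0.117). Of 10 macrophage markers 0 were called, and 1 was higher at an unadjusted p under 0.05 and by DESeq2. It was Cx3cr1, the fractalkine receptor, with a log2 fold change of 0.71 (edgeR adjusted p 0.109, DESeq2 adjusted p 0.00364, 0.0439 without robust moderation), followed by Cd163, a scavenger receptor, with -0.36 (edgeR adjusted p 0.253, 0.0259 without AE3-null replicate 1).

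The genes whose pattern over the 8 libraries was most like each risen gene were found by the root mean square difference of log2 CPM, centred on each gene's mean, among 12584 tested genes with at least 1 CPM on average. For Adra1b they were Smad9, Eny2 and Kcnj5, at 0.0604, 0.0723 and 0.0724. For Chrm2 they were Art3, Cyp2d22 and Dstn, at 0.05, 0.0512 and 0.0524. For Dbh they were Agtr1a, Map2k6 and Gal3st2c, at 0.0989, 0.0996 and 0.118. All 9 were called higher in AE3-null hearts, with log2 fold changes of 0.21 to 0.82, and since each gene shares the difference between genotypes with its neighbours, the likeness is a description. Agtr1a, the angiotensin II receptor, had 37.8 ± 1.47 CPM in AE3-null and 21.5 ± 3.56 CPM in wild-type hearts (log2 0.82, SE 0.0887, adjusted p 0.000193), beside Dbh at log2 0.82. The calls of Smad9 and Art3 were lost without AE3-null replicate 4 (adjusted p 0.0644 and 0.0543) or wild-type replicate 4 (0.0692 and 0.0501), and that of Cyp2d22 without AE3-null replicate 4 (0.0783) or wild-type replicate 1 (0.0504) or 4 (0.0644).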

How the data were processed

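The deposited values were read counts per gene, 1 column per library, without normalization. The submitters' processing notes name bcl2fastq of CASAVA 1.8, the TopHat aligner, mouse build mm9 and DESeq. Which program counted the reads, with which strand setting, annotation and filters, is not stated in the labels or files. Genes carry Entrez numbers, of which 23185 of 23282 matched a symbol in a RefSeq table of GRCm38.p6. That build differs from mm9, so the only coordinates given are those of the RefSeq promoter windows, in GRCm38.p6.

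Groups and replicate numbers came from the labels. Genes were kept with filterByExpr at a minimum count of 10, which left 14136, and the genotypes were compared over 8 libraries with edgeR 4.0.16 (R 4.3.3), TMM factors, robust quasi-likelihood tests and Benjamini-Hochberg adjustment. CPM were computed from the deposited counts. The SE given with an edgeR log2 fold change is its absolute value divided by the square root of the test's F statistic. The fit was tested on simulated data. Alternatives were RLE factors, total counts only, no filter, a stricter filter of 50, no robust moderation, DESeq2 1.42.0, limma 3.58.1 voom, an adjusted p under 0.1, a replicate block and leaving out each library.

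The 9 genes, the lists and the tests were chosen with earlier results of these data known. Beside the 9 genes, the text names up to 4 called genes of each list with the smallest p, or up to 2 tested genes where none was called, and for each called gene of the 9 the 3 genes most like it. A few genes that this rule names are not reported here and still count in their lists. Other names were chosen after their values were seen. Within a genotype, the only pairs checked, no library duplicated another: pairs had a chi-square of 2.57 to 7.63 per gene.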

Additional observations from a re-analysis of the deposited data

Results flagged for a closer look

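In 144 groups of 4 libraries, 11 had 1 library far from the other 3, where chance flags about 1 in 20 groups. The groups include genes chosen after their values were seen, among them Slc5a7, Npy and Slc18a2, so the number flagged is only a description. None of the 11 is a group of the 9 autonomic genes. In nerve genes, AE3-null replicate 4 had 0.479 CPM of Slc5a7, against 0 to 0.0526 CPM in the other AE3-null libraries, and 0.368 CPM of Npy, against 0.210 to 0.216 CPM. AE3-null replicate 2, the smallest library, had 4.42 CPM of Slc18a2, against 3.16 to 3.37 CPM in the other AE3-null libraries, and 40.4 CPM of Gja5, against 46.1 to 47.2 CPM. Kcnj3 stood at 68.8 CPM in AE3-null replicate 3, against 74.8 to 75.7 CPM, and Gal3st2c at 5.18 CPM in AE3-null replicate 1, against 5.60 to 5.68 CPM. Wild-type replicate 3 was apart in 3 genes: Grk3 at 28.5 CPM, against 35.4 to 36.6 CPM in the other wild-type libraries, Agtr1a at 26.8 CPM, against 19.1 to 20.2 CPM, and Tnnt2 at 7012 CPM, against 7275 to 7317 CPM. Mybphl stood at 61.9 CPM in wild-type replicate 1, against 68.9 to 70.02 CPM, and Cyp2d22 at 52.3 CPM in wild-type replicate 2, against 47.9 to 48.0 CPM.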

How the results depend on the processing

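The calls among the 9 autonomic genes, 3 higher and 0 lower, were the same in all 17 alternatives. The log2 fold change lay between 0.42 and 0.53 for Adra1b, 0.23 and 0.30 for Chrm2, and 0.74 and 0.92 for Dbh with single libraries left out, and over all 16 other fits the highest adjusted p was 0.00592, 0.0156 and 0.00726. Over all genes the calls were 447 higher and 468 lower, and 731 and 815 at an adjusted p under 0.1. With single libraries left out they ranged from 214 to 821 higher and from 193 to 906 lower. With total counts only, 528 were higher and 361 lower, or 59.4% of the calls higher against 48.9%. The Adra1b share difference was 5.41 to 7.42 points with single libraries left out, 6.04 points with an exact permutation p of 0.0571 without wild-type replicate 4. Adrb1 and Maoa, near 0, changed sign: Adrb1 was 0.0069 with total counts only and -0.0526 to 0.036 with single libraries left out, and Maoa was -0.0003 by limma voom, -0.0037 with the replicate block and -0.0731 to 0.068 with single libraries left out. Ucp1 was -0.35 by limma voom, against 1.67. The causes were not tested. Of 38 other called genes named, 17 lost the call in at least 1 of 16 alternatives; with the replicate block the adjusted p was 0.0504 for Pts, 0.0616 for Pde2a and 0.0543 for Dpt. With the replicate number as a block, 485 genes were higher and 517 lower, with 3 and 0 of the 9. Deviations of same-numbered libraries correlated at 0.163, -0.0397, 0.0154 and -0.0028. Whether the numbers pair the libraries cannot be settled from these correlations. Depth limits Th and Adrb3, which no fit with a filter tested.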
